A study of Mus musculus with 8 samples.

Results

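The 35 genes described here encode the transcription factor NRF2 (gene symbol Nfe2l2), its inhibitor KEAP1 and enzymes that make or use glutathione and thioredoxin or remove superoxide and peroxides. They were taken by symbol from a table of 54532 mouse genes, and each of the 35 symbols matched 1 row. RNA from the substantia nigra of male C57BL/6 mice was sequenced in 4 groups of 2 libraries. The control group was labelled as wild type. The vector group received an adeno-associated virus (AAV) that carries α-synuclein, the main protein of the Lewy bodies of Parkinson's disease. The AKG group received α-ketoglutarate, a TCA cycle intermediate taken with the diet according to the series title, and the combined group received both. The labels do not give the promoter or species of the α-synuclein construct, the dose of either agent, the age of the mice, or whether an empty vector went to the control and AKG mice. They also do not say whether the 2 libraries of a group came from separate animals, so p-values measure only the spread between these libraries, which may be technical.

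NRF2 is a stress-responsive transcription factor. In unstressed cells KEAP1 binds it and directs it to the proteasome, and oxidants or electrophiles that modify KEAP1 let NRF2 reach the nucleus and bind antioxidant response elements with a small MAF partner. Its direct targets include enzymes of glutathione synthesis and thioredoxin recycling, while many peroxiredoxins and superoxide dismutases are expressed at high levels without such induction. In the brain the pathway is best known from astrocytes, which supply neurons with glutathione precursors, and dopamine neurons of the substantia nigra carry a high oxidant load from dopamine metabolism.

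Antioxidant response elements sit in promoters and enhancers of NRF2 targets, so the promoters of the 35 genes were searched for the core TGACNNNGC, the longer form TGACTCAGC, which contains the core, and the AP-1 type site TGANTCA, which the longer form also contains. RefSeq windows (GRCm38.p6, 250 bases before to 50 bases after the annotated start, both strands) were available for 29 of the 35 genes, and those of Hmox1, Gclc, Gsr, Prdx6, Gsta4 and Sod3 were not used here. These 29 genes had 37 windows, since some have several starts. The core was in a window of 8 of the 29 genes (27.6%), against 14.0% of 27025 genes with a window. The longer form was found for Prdx1 alone among the 29 (3.45%), against 0.503% of all genes, and TGANTCA was in 5 of 29 (17.2%), against 8.97%. The core was in 3 of the 6 direct targets with a window (Gclm, Txnrd1 and Srxn1) and in 2 of the 7 peroxiredoxins and superoxide dismutases with one (Prdx1 and Sod1). The median GC content of the members' windows was 58.7%, against 52.7% for all windows, and its part in these shares was not tested. Prdx1 and Sod1 are shown with part of their promoters because both had an unadjusted p under 0.05 in all 3 comparisons with control. In each sequence, written 5′ to 3′ on the gene's strand, capitals mark the match to the core or, where the match was on the opposite strand, its reverse complement.
Prdx1 promoter (chr4:116685349-116685543, plus strand): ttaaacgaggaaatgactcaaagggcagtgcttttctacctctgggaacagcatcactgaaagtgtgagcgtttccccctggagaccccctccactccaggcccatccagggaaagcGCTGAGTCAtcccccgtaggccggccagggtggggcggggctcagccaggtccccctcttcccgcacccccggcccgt
Sod1 promoter (chr16:90220512-90220753, plus strand): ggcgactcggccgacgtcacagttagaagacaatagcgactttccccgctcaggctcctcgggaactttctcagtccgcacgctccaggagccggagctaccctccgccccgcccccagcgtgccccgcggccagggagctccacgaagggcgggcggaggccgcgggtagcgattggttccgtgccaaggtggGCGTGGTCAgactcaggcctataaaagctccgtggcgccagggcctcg
Matches upstream of the RefSeq start in other members are shown with 10 bases on each side, to allow comparison of their variable letters.
Nfe2l2 (chr2:75704885-75704913, minus strand): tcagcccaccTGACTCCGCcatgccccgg
Gclm (chr3:122245413-122245441, plus strand): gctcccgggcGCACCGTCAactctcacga
Txnrd1 (chr10:82859104-82859132, plus strand): ctggatttttGCTTTGTCAttctgacacg
Gstm5 (chr3:107895802-107895830, plus strand): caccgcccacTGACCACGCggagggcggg
Mgst1 (chr6:138140461-138140489, plus strand): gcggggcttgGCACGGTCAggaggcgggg
Between the match and the RefSeq start lay 231 bases in Nfe2l2, 125 in Gclm, 124 in Prdx1, 83 in Txnrd1, 47 in Sod1 and Mgst1 and 33 in Gstm5. A match describes letters in the window and says nothing of whether NRF2 binds there.

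Values are FPKM, fragments per kilobase of gene length, so levels can be compared between genes per length. They are scaled to an effective size of each library, which was not its total of reads assigned to genes. The reads assigned to genes numbered from 16544190.0 to 19125423 per library. Of all genes, 13716 averaged 1 FPKM or more across the libraries and were tested with limma on log2(FPKM + 1), a scale that understates the change of low genes. All 35 antioxidant genes were among them. Control library 1 stood apart, with a mean Spearman correlation across genes of 0.926 with the other 7 libraries, against 0.971 to 0.975 for each of those. Its summed choroid plexus markers were 9482 FPKM, against 523 in control library 2 and 93.0 to 5285 in the other groups, and its pan-neuronal markers summed to 895 FPKM, against 1194 to 1348 in the other 7 libraries. Defining markers of nigral dopamine neurons were present, with Th (tyrosine hydroxylase, which makes the dopamine precursor) at 38.8 FPKM in both control libraries and 10.4 to 16.6 in the other 6. Slc6a3, the dopamine transporter, was at 24.1 and 28.5 FPKM in control and 0.615 to 11.9 in the others. In bulk tissue, fewer cells of a type and less RNA per cell cannot be told apart.

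The antioxidant genes were mostly lower in each of the 3 treated groups than in control, but none passed the adjusted threshold. The median log2 difference from control of the 35 genes was -0.32 for the vector, -0.29 for AKG and -0.26 for both, against -0.01 over all 13716 tested genes in each. Limma called 0 of 35 members at an adjusted p under 0.05 in each of these comparisons, with 0.0% of all genes called for the vector, 0.00729% for AKG (Th alone) and 0.0% for both. The lowest adjusted p of a member was 0.294 in the vector, 0.269 in the AKG and 0.349 in the combined comparison, and limma-voom on reads recovered from the FPKM also called 0 members. These 3 comparisons use the same 2 control libraries, so their values are given side by side and are not independent of each other.

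At an unadjusted p under 0.05, 6 of the 35 genes lay below control with the vector (7.54% of all genes did), 5 with AKG (7.19%) and 4 with both (5.19%). Above control at that p were 0 members in each comparison, against 9.27%, 10.5% and 8.71% of all genes. Other settings gave other counts of members at that p in either direction, with 8, 5 and 4 by limma-voom, 3, 3 and 0 under a replicate block, 3, 2 and 2 with the trend in gene length removed and 2, 2 and 4 with quantile normalization. The difference from control was below 0 for 30 of 35 members (85.7%) with the vector, against 51.2% of all genes. It was below 0 for 28 (80.0%) with AKG and 30 (85.7%) with both, against 51.4% and 50.8% of all genes. Both libraries of a group lay below both control libraries for 22 members with the vector, 18 with AKG and 13 with both. The same held for 27.6%, 26.4% and 20.5% of all tested genes. In the other direction, 1 member (Gclm) lay above control without overlap in the vector group, 1 (Sod2) with AKG and 0 with both, against 26.3%, 26.0% and 21.3% of all genes.

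**Figure D1:**
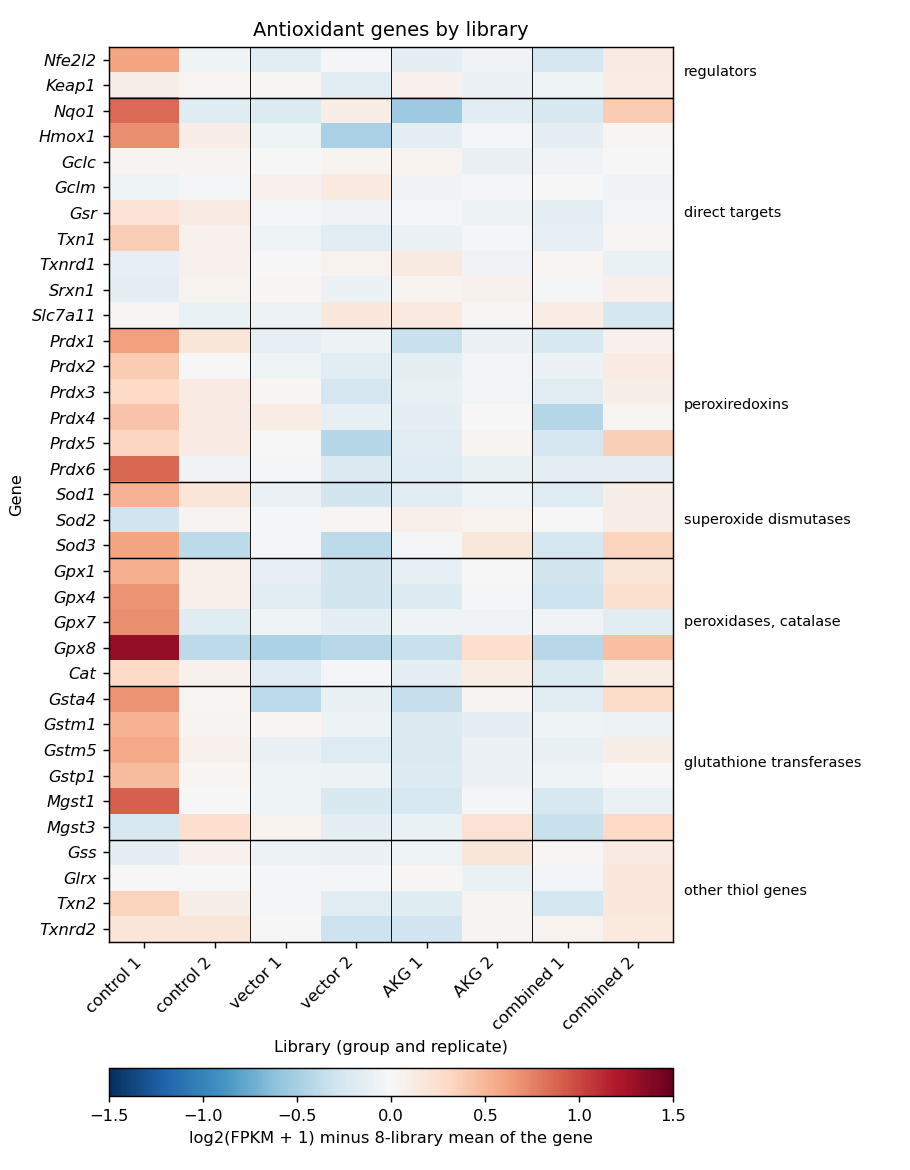
Each row is 1 of the 35 genes, ordered by role, and each column is 1 of the 8 libraries. Colour gives log2(FPKM + 1) minus the gene's mean over the 8 libraries, and control library 1 is the highest library for 24 of the 35 genes.

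Control library 1 held the highest value of 24 of the 35 genes (68.6%), while it was the highest library for 31.6% of all tested genes. Leaving it out moved the median of the members to -0.13 in the vector, -0.13 in the AKG and -0.08 in the combined comparison, with 30, 28 and 23 members below 0 (53.3%, 52.4% and 52.7% of all genes). Leaving out control library 2 instead moved the medians to -0.49, -0.47 and -0.42, and 16, 15 and 12 members were then called at an adjusted p under 0.05, with 24.5%, 24.6% and 21.3% of all genes called. These member calls therefore rest on control library 1 alone on the control side. With that first library left out, 0 members had an unadjusted p under 0.05 in any of the 3 comparisons, and the difference turned sign for 6, 6 and 9 of the 35 genes. For 11 of the 35 genes (31.4%) both control libraries lay above all 6 others, against 12.2% of all genes, and for 0 genes both lay below all 6, against 14.3%. The 11 genes were Hmox1, Gsr, Txn1, Prdx1, Prdx3, Prdx4, Sod1, Gstm1, Gstp1, Mgst1 and Txnrd2.

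Of the regulators, NRF2 itself is controlled mostly through the stability of its protein, which RNA does not show. Nfe2l2 (chr2:75675513-75704641, minus strand, GRCm38) was at 8.73 and 5.16 FPKM in the control libraries, 4.72 and 5.34 in the vector libraries, 4.82 and 5.23 in the AKG libraries and 4.43 and 6.04 in the combined libraries. The first control library was high and the other 7 lay close together, so each treated group overlapped with control. Keap1, the adaptor that brings NRF2 to its ubiquitin ligase, was at 19.4 and 18.5 FPKM in the control libraries, 18.4 and 16.2 in the vector libraries, 18.9 and 16.9 in the AKG libraries and 17.3 and 19.6 in the combined libraries. Its levels overlapped among control, AKG and combined libraries, and both vector libraries lay below both controls, the first of them just under control library 2.

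The direct targets were split. With all libraries, Gclm, Txnrd1, Srxn1 and Slc7a11 lay at or above control in the vector group, while Hmox1, Nqo1, Txn1 and Gsr lay below. Without control library 1 the vector differences of Nqo1, Txnrd1 and Srxn1 turned sign, to 0.13, -0.03 and -0.08. The median over the 9 targets was -0.03 in the vector, -0.07 in the AKG and -0.07 in the combined comparison. Nqo1, a quinone reductase that is the standard readout of NRF2 activity, was at 10.5 and 4.66 FPKM in the control libraries, 4.57 and 5.84 in the vector libraries, 3.39 and 4.68 in the AKG libraries and 4.44 and 7.35 in the combined libraries. The first control library and the second combined library were the highest, and every group overlapped with control. Without control library 1 its difference from control was 0.13 for the vector, -0.18 for AKG and 0.25 for both. Its AKG difference with all libraries of -0.69 ± 0.36 had an adjusted p of 0.328 in limma. Hmox1 (heme oxygenase 1, chr8:75093621-75100589, plus strand), which breaks down heme, was at 6.12 and 3.70 FPKM in the control libraries, 3.19 and 2.12 in the vector libraries, 2.98 and 3.34 in the AKG libraries and 2.998 and 3.45 in the combined libraries. All 6 treated libraries were below both controls, and the group means were 4.91 ± 1.71 FPKM for control and 2.65 ± 0.755 for the vector (SD, n = 2). The vector difference was -0.68 ± 0.22 on the log2 scale, with an unadjusted limma p of 0.0195 and an adjusted p of 0.294.

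Genes of glutathione synthesis lay close to control. Gclc, the catalytic subunit of glutamate-cysteine ligase, was at 17.4 and 17.4 FPKM in the control libraries, 16.7 and 17.4 in the vector libraries, 17.5 and 15.5 in the AKG libraries and 16.2 and 16.8 in the combined libraries. The 8 libraries spanned a narrow range, with both combined libraries below both controls and the other groups overlapping with control. Gclm, its modifier subunit (chr3:122245557-122270732, plus strand), was at 10.7 and 11.0 FPKM in the control libraries, 11.8 and 12.6 in the vector libraries, 10.8 and 11.2 in the AKG libraries and 11.3 and 10.8 in the combined libraries. Both vector libraries were above every other library, by 0.16 ± 0.09 on the log2 scale against control with an adjusted limma p of 0.365. Slc7a11, the cystine transporter that feeds glutathione synthesis, was at 3.03 and 2.72 FPKM in the control libraries, 2.78 and 3.47 in the vector libraries, 3.41 and 3.03 in the AKG libraries and 3.33 and 2.32 in the combined libraries. Its groups overlapped throughout. Gss, glutathione synthetase, which completes the molecule, ranged from 4.82 to 6.32 FPKM over the 8 libraries.

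Among the enzymes that recycle reduced glutathione and thioredoxin, Gsr and Txn1 lay below control and Txnrd1 and Srxn1 overlapped with it. Gsr, glutathione reductase, was at 14.9 and 14.0 FPKM in the control libraries, 12.6 and 12.3 in the vector libraries, 12.6 and 12.1 in the AKG libraries and 11.6 and 12.3 in the combined libraries. All 6 treated libraries were below both controls, with a combined difference of -0.26 ± 0.09 on the log2 scale (unadjusted limma p 0.0307, adjusted p 0.349). Txn1, the cytosolic thioredoxin and the most abundant direct target per length, was at 100.4 and 81.6 FPKM in the control libraries, 74.6 and 69.7 in the vector libraries, 73.2 and 76.2 in the AKG libraries and 71.3 and 79.0 in the combined libraries. Again all 6 treated libraries were below both controls, and the vector difference was -0.32 ± 0.13 (unadjusted limma p 0.0452, adjusted p 0.294). Txnrd1, the reductase that keeps thioredoxin reduced, was at 11.0 and 12.6 FPKM in the control libraries, 12.1 and 12.6 in the vector libraries, 13.3 and 11.6 in the AKG libraries and 12.3 and 11.2 in the combined libraries, with all groups overlapping. Srxn1, sulfiredoxin, which repairs overoxidised peroxiredoxins, was at 41.2 and 47.1 FPKM in the control libraries, 46.6 and 42.8 in the vector libraries, 46.8 and 47.6 in the AKG libraries and 44.4 and 48.2 in the combined libraries. Here the lowest library was the first control library, and the groups overlapped.

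**Figure D2:**
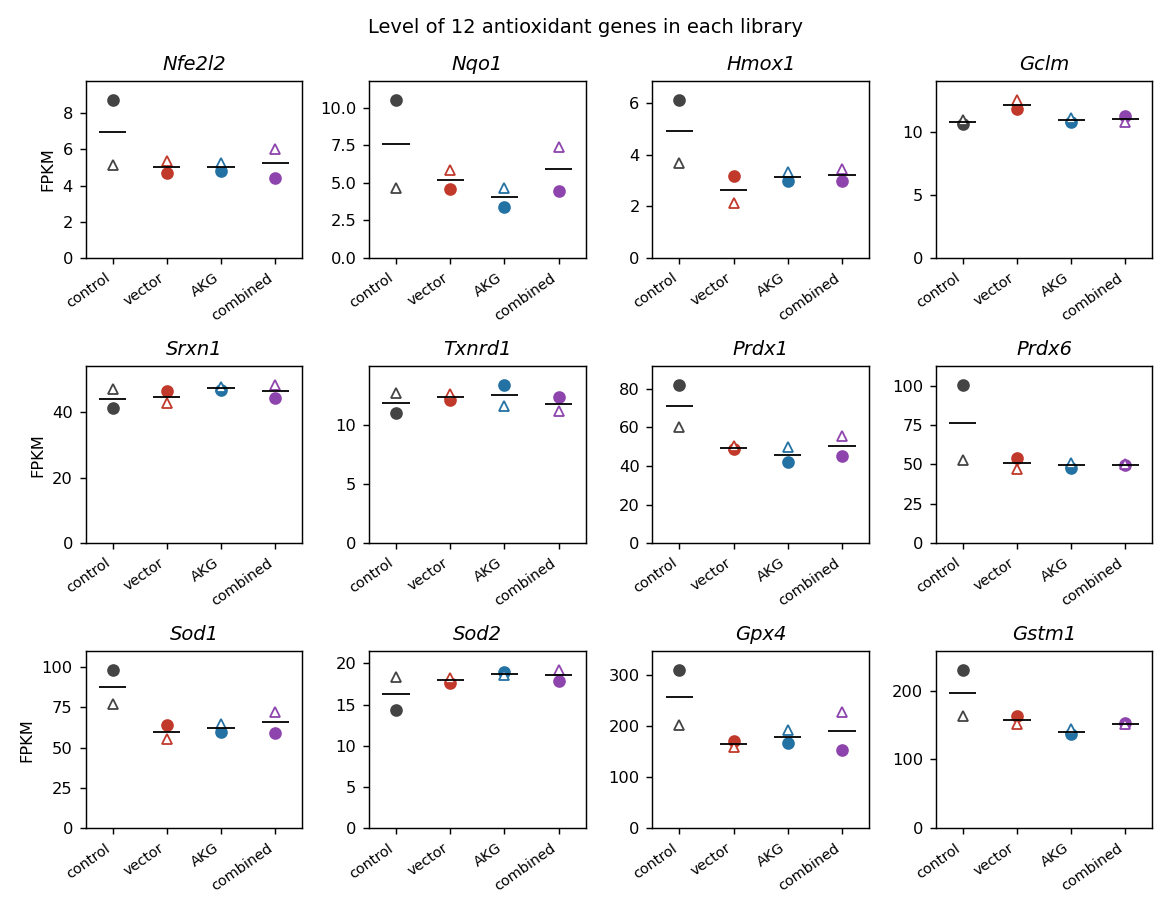
Each panel gives 1 of 12 genes in FPKM (linear axis from 0), with a filled circle for replicate 1, an open triangle for replicate 2 and a line at the group mean. For Prdx1 and Sod1 the 6 treated libraries lie below both controls, while for Gclm the vector libraries are the highest.

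Peroxiredoxins reduce hydrogen peroxide and lipid peroxides through a reactive cysteine. With all libraries, all 6 had a difference below 0 in each comparison with control. Without control library 1 the combined difference of Prdx2 turned sign, to 0.01. Both treated libraries lay below both controls for 5 of the 6 with the vector, 6 of 6 with AKG and 4 of 6 with both (27.6%, 26.4% and 20.5% of all genes). Prdx1 (chr4:116685544-116700822, plus strand), a cytosolic form that is itself NRF2-responsive, was at 81.9 and 60.3 FPKM in the control libraries, 48.7 and 50.2 in the vector libraries, 42.0 and 49.7 in the AKG libraries and 45.1 and 55.8 in the combined libraries. Control was higher in both of its libraries than any treated library, and the means were 71.1 ± 15.3 FPKM for control, 49.4 ± 1.10 for the vector, 45.8 ± 5.48 for AKG and 50.4 ± 7.58 for both (SD, n = 2). The log2 differences from control were -0.50 ± 0.18 for the vector, -0.61 ± 0.18 for AKG and -0.48 ± 0.18 for both, with adjusted limma p-values of 0.294, 0.269 and 0.349 and unadjusted values of 0.0286, 0.0121 and 0.0336.

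Prdx2, the abundant cytosolic form of neurons and red cells, was at 110.4 and 84.9 FPKM in the control libraries, 81.1 and 75.6 in the vector libraries, 76.5 and 82.6 in the AKG libraries and 79.4 and 92.4 in the combined libraries. The first control library was the highest, and the second combined library lay above control library 2. Summed red cell markers were lowest in control library 1, at 40.8 FPKM, and 468 FPKM in control library 2. Prdx3, the mitochondrial form, was at 64.1 and 56.7 FPKM in the control libraries, 53.2 and 43.6 in the vector libraries, 48.2 and 50.7 in the AKG libraries and 46.7 and 55.3 in the combined libraries. Treated libraries were all lower than both controls. Prdx4, of the endoplasmic reticulum, was at 16.6 and 13.2 FPKM in the control libraries, 13.1 and 11.0 in the vector libraries, 10.8 and 11.997 in the AKG libraries and 8.70 and 12.3 in the combined libraries, also with all 6 below both controls, and its combined difference was -0.48 ± 0.19 with an unadjusted limma p of 0.0381 and an adjusted p of 0.350. Prdx5, found in mitochondria, peroxisomes and cytosol, was at 149 and 129.8 FPKM in the control libraries, 118 and 88.0 in the vector libraries, 106 and 122 in the AKG libraries and 99.9 and 153 in the combined libraries. The second combined library was its highest. Prdx6, which reduces phospholipid hydroperoxides and is abundant in astrocytes, was at 100.4 and 52.9 FPKM in the control libraries, 54.1 and 47.3 in the vector libraries, 48.0 and 50.7 in the AKG libraries and 49.7 and 50.03 in the combined libraries. For this gene control library 1 was 2.01 times the median of the other 7, which lay between 47.3 and 54.1 FPKM, so the groups overlapped in 1 of the 3 comparisons with control.

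Superoxide dismutases convert superoxide to hydrogen peroxide, and the 3 genes had different patterns. Sod1 (chr16:90220754-90226329, plus strand), the cytosolic copper-zinc enzyme, was at 97.8 and 76.7 FPKM in the control libraries, 63.8 and 55.6 in the vector libraries, 59.9 and 64.8 in the AKG libraries and 59.3 and 71.7 in the combined libraries. Both controls exceeded each of the 6 treated libraries, with means of 87.3 ± 14.9 FPKM for control and 59.7 ± 5.84, 62.3 ± 3.42 and 65.5 ± 8.80 in the vector, AKG and combined groups (SD, n = 2). Its log2 differences were -0.53 ± 0.16, -0.47 ± 0.16 and -0.40 ± 0.16 in that order, with unadjusted limma p-values of 0.0133, 0.0232 and 0.0415 and adjusted values of 0.294, 0.270 and 0.353. Sod2, the manganese enzyme of the mitochondrial matrix, was at 14.3 and 18.4 FPKM in the control libraries, 17.7 and 18.2 in the vector libraries, 18.9 and 18.6 in the AKG libraries and 17.9 and 19.2 in the combined libraries. It was lowest in control library 1, and both AKG libraries lay above both controls. Sod3, the secreted enzyme, was at 7.62 and 3.35 FPKM in the control libraries, 4.59 and 3.37 in the vector libraries, 4.62 and 5.43 in the AKG libraries and 3.81 and 6.24 in the combined libraries. The first control library and the second combined library were the highest, and the groups overlapped.

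The remaining peroxide-removing enzymes had a median over 5 genes of -0.50 in the vector, -0.38 in the AKG and -0.36 in the combined comparison, and of -0.18, -0.08 and -0.11 without control library 1. Gpx1, the cytosolic glutathione peroxidase, was at 128 and 91.5 FPKM in the control libraries, 80.1 and 71.9 in the vector libraries, 79.8 and 86.4 in the AKG libraries and 71.5 and 99.2 in the combined libraries. Both vector libraries lay below both controls, with a difference of -0.50 ± 0.21 on the log2 scale (unadjusted limma p 0.0469, adjusted p 0.294). Gpx4, which reduces phospholipid hydroperoxides and blocks ferroptosis, had the highest level of the 35 genes per length, from 153 to 308 FPKM. Cat, catalase of the peroxisome, ranged from 22.4 to 32.5 FPKM, and Gpx7 from 3.33 to 6.99, with control library 2 lowest and control library 1 highest. Gpx8 of the endoplasmic reticulum was at 16.5 FPKM in control library 1, which was 3.78 times the median of the other 7 libraries, and at 8.59 FPKM in combined library 2.

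Glutathione transferases attach glutathione to electrophiles, and their median over 6 genes was -0.40 in the vector, -0.47 in the AKG and -0.31 in the combined comparison, and -0.18, -0.19 and -0.09 without control library 1. Gstm1 was at 229.6 and 164 FPKM in the control libraries, 162 and 152 in the vector libraries, 137 and 144 in the AKG libraries and 153 and 152 in the combined libraries. Neither control library was reached by a treated one, with an AKG difference of -0.46 ± 0.17 (unadjusted limma p 0.0288, adjusted p 0.270). Gstm5 was at 179.6 and 126 FPKM in the control libraries, 111 and 105 in the vector libraries, 104 and 113 in the AKG libraries and 112 and 129 in the combined libraries, with differences of -0.47 ± 0.18 for the vector and -0.47 ± 0.18 for AKG and adjusted limma p-values of 0.294 and 0.270. Gstp1 was at 222 and 163 FPKM in the control libraries, 152 and 152 in the vector libraries, 138 and 149 in the AKG libraries and 152 and 159 in the combined libraries, and its AKG difference of -0.41 ± 0.16 had an adjusted limma p of 0.274. Both Gstm5 and Gstp1 were highest in control library 1. Gsta4, which conjugates the lipid peroxidation product 4-hydroxynonenal, ranged from 33.5 to 72.4 FPKM, and the membrane-bound Mgst1 from 9.30 to 21.6. Mgst3 stood apart from these, since its 2 lowest libraries were combined library 1 at 61.0 FPKM and control library 1 at 65.2.

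Of the other thiol genes, mitochondrial thioredoxin (Txn2) ranged from 22.5 to 34.7 FPKM and its reductase Txnrd2 was at 4.41 and 4.40 FPKM in the control libraries, 3.82 and 2.86 in the vector libraries, 2.91 and 3.90 in the AKG libraries and 3.94 and 4.27 in the combined libraries. All 6 treated libraries lay below both controls for Txnrd2. Glutaredoxin (Glrx), which removes glutathione from proteins, ranged only from 5.87 to 7.17 FPKM.

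With control library 1 left out, the members with an unadjusted p under 0.05 kept their sign at a smaller size. In the vector comparison Hmox1 was then at -0.38, Sod1 at -0.36, Prdx1 at -0.28, Gpx1 at -0.27, Gstm5 at -0.22 and Txn1 at -0.18. In the AKG comparison Prdx1 was at -0.39, Sod1 at -0.30, Gstm5 and Gstm1 at -0.22 and Gstp1 at -0.18. In the combined comparison Prdx4 was at -0.32, Prdx1 at -0.26, Sod1 at -0.23 and Gsr at -0.21. Members that turned sign in at least 1 of the 3 comparisons were Nqo1, Gpx7, Gpx8, Sod2, Sod3, Srxn1, Txnrd1, Gclm, Mgst3, Gsta4, Nfe2l2, Prdx2 and Slc7a11.

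Direct NRF2 targets and the group of peroxiredoxins and superoxide dismutases were compared as 9 genes each. The direct targets were below control for 5 of 9 genes with the vector, 5 of 9 with AKG and 7 of 9 with both, and the peroxiredoxins and dismutases for 8 of 9 in each. Both treated libraries lay below both controls for 3, 3 and 4 of the 9 targets and for 6, 7 and 5 of the other 9, against 27.6%, 26.4% and 20.5% of all genes, so the share of the targets was near the background in the vector and AKG groups. The median of the targets was above that of the peroxiredoxins and dismutases by 0.29 in the vector, 0.22 in the AKG and 0.17 in the combined comparison on the log2 scale. Library by library, the same gap taken from each gene's deviation from its mean was -0.39 and -0.07 in control, 0.00 and 0.25 with the vector, 0.13 and 0.01 with AKG and 0.13 and -0.09 with both. The vector and AKG libraries lay above both controls, and the combined libraries overlapped with control. The pooled SD between replicates of this value was 0.169 on the log2 scale, and no test was made of the gap. The gap also depends on where genes regulated by NRF2 as well as by other factors are counted. With Prdx1, Gsta4, Gstm1, Gstp1 and Mgst1 counted as targets too, the gap was -0.0010, -0.05 and -0.05. Without control library 1 the gap was 0.10, 0.12 and 0.01, and without control library 2 it was 0.52, 0.43 and 0.46. With the trend in gene length removed it was 0.18, 0.07 and 0.01, and with quantile normalization 0.28, 0.11 and 0.08.

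**Figure D3:**
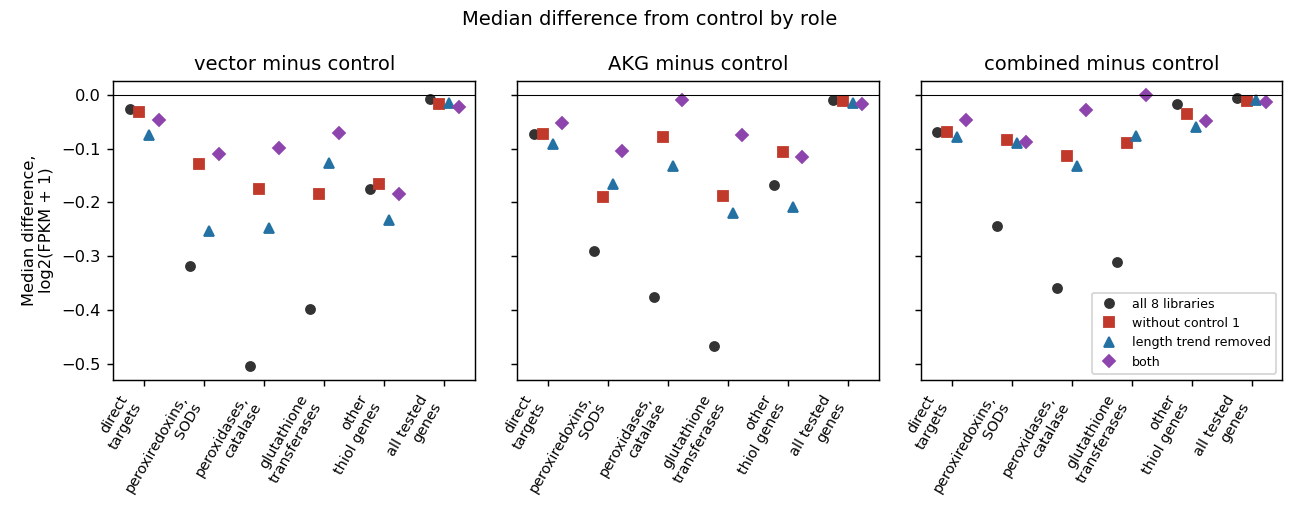
Points give the median log2 difference from control of each role's genes, for the vector, AKG and combined groups, under 4 settings: all 8 libraries, control library 1 left out, the trend with gene length removed, and both. With all libraries the direct targets lie at -0.03 in the vector group and -0.07 in the AKG group, and the median of the peroxiredoxins and dismutases goes from -0.32 to -0.11 in the vector group when both changes are made.

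Gene length moved with these differences. Across the 35 genes the vector minus control difference had a Spearman rho of 0.55 with the gene length in the table, and the AKG and combined differences had 0.52 and 0.50. Across all 13716 tested genes the same values were 0.56, 0.53 and 0.51 (genes share the libraries and are not independent replicates). Apart from Srxn1, the members that lay above control in the vector group were the longest ones, with Slc7a11 at 13922 bases, Sod2 at 10008, Txnrd1 at 7086 and Gclm at 6291, and the 35 genes had a median length of 2754 bases, against 4070.5 for all tested genes. The median length was 2820 bases for the 9 direct targets and 3050 for the 9 peroxiredoxins and dismutases.

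Removing a smooth trend with length from each library left the medians of the 35 genes at -0.17 in the vector, -0.14 in the AKG and -0.10 in the combined comparison, with 31, 31 and 32 genes below 0 (52.7%, 52.3% and 51.6% of all genes) and no call. Some directions turned with it: the vector difference became -0.26 for Slc7a11 and -0.12 for Sod2, and the AKG difference became -0.21 and -0.05. With control library 1 left out as well they were -0.09, -0.08 and -0.03, with 27, 30 and 23 genes below 0, against 55.9%, 53.9% and 53.4% of all genes. The gap between targets and peroxiredoxins with dismutases was then 0.06, 0.05 and 0.04. The length trend differs between libraries, with a rho across genes of -0.52 in the first control library and -0.28 in the second. It was 0.26 and 0.45 in the vector libraries, 0.44 and 0.10 in the AKG libraries and 0.47 and -0.17 in the combined libraries. The part of RNA quality in these values was not tested.

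**Figure D4:**
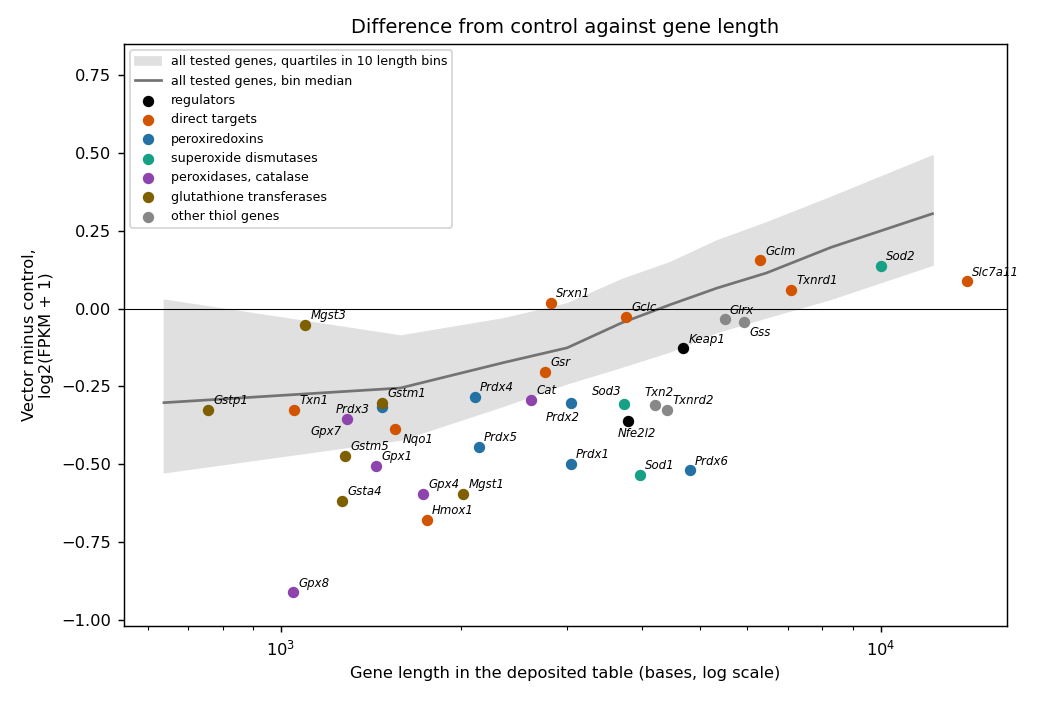
Each point is 1 of the 35 genes, with its length in bases on a log axis and its vector minus control difference in log2(FPKM + 1), coloured by role. The grey line and band give the median and quartiles of all tested genes in 10 length bins, and the members above 0 are mostly the long ones (Spearman rho 0.55).

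Markers of other cell types also differed between the libraries. Nfe2l2, Nqo1, Sod3 and Gpx8 were highest in control library 1 and combined library 2, the libraries with the highest summed choroid plexus markers (9482 and 5285 FPKM). In combined library 1, where that sum was 97.0 FPKM, Nqo1 was at 4.44 and Gpx8 at 4.27 FPKM. Gpx8 was next highest in AKG library 2, at 7.38 FPKM with a sum of 2782. Nqo1 and Sod3 did not follow the sum in the remaining libraries. Nqo1 was lowest in AKG library 1, at 3.39 FPKM with a sum of 1529, and at 4.57 in vector library 1, with a sum of 93.0. Sod3 was at 4.59 FPKM in vector library 1 and 3.37 in vector library 2, where the sum was 2197. Microglial markers summed to 310 and 264 FPKM in control, 215 and 187 with the vector, 204 and 247 with AKG and 215 and 275 with both. C1qa and C1qb made up much of that sum, at 98.7 and 97.1 FPKM in control library 1. Other markers of the list did not follow it. Csf1r was lowest in control library 1, at 18.8 FPKM. P2ry12 was at 8.58 FPKM there, against 8.81 and 9.07 in the vector libraries, and Cx3cr1 at 9.72, against 9.68 and 9.51. Astrocyte markers, the cell type in which the NRF2 pathway is most active, summed to 800 to 964 FPKM over the 8 libraries. Aldoc made up much of that sum, at 388 to 540 FPKM, and single markers went different ways. In control library 1 Aldoc (540 FPKM) and S100b (137 FPKM) were at their highest, while Slc1a2 (42.5 FPKM) and Slc4a4 (16.6 FPKM) were at their lowest. The dopamine neuron markers summed to 149 and 154 FPKM in control and 63.9 to 90.2 in the other 6 libraries. Not every marker of that list followed its sum. Ret was at 4.62 and 12.6 FPKM in control and 7.86 to 9.21 in the other 6 libraries. Nr4a2 was at 5.83 and 6.43 FPKM in control and 3.46 to 8.60 in the others. The part of these cell types in the differences was not tested.

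The combined group was also compared with each agent alone. The median difference of the combined from the vector group was 0.06 over the 35 genes, against 0.01 over all genes, and that of the combined from the AKG group was 0.02, against -0.00. The sign rests on the library: without combined library 2 the medians were -0.03 and -0.05, with 24 and 26 of 35 genes below 0, and without combined library 1 they were 0.19 and 0.15. Limma called 0 of 35 members in both comparisons (0.0% of all genes in each), with a lowest adjusted p of 1.0 in each. At an unadjusted p under 0.05 there were 0 members in each, against 1.36% and 1.14% of all genes. Limma-voom also called 0 members. Both combined libraries lay above both vector libraries for 5 members (12.9% of all genes) and below for 1 (11.4%), and above both AKG libraries for 3 (11.3%) and below for 0 (11.8%). The 2 combined libraries differed from each other by a median of 0.20 in absolute log2 value over the 35 genes.

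The interaction asks whether the combined group differs from control by other than the sum of the vector and AKG differences. Its median over the 35 genes was 0.36, against 0.01 over all genes, and 6 members were below 0 (49.2% of all genes). Limma and limma-voom called 0 members (0.0% of all genes with limma), with a lowest adjusted p of 0.537, while 4 members were higher at an unadjusted p under 0.05 (3.62% of all genes). That count was 0 with a replicate block, 0 without control library 1 and 2 with quantile normalization. The 4 were Prdx1 at 0.63 ± 0.26, Sod1 at 0.60 ± 0.23, Gstm5 at 0.62 ± 0.25 and Txnrd2 at 0.55 ± 0.22. The interaction contains the control libraries, and its median went to 0.15 when control library 1 was left out, 0.60 when control library 2 was, and 0.23 with the length trend removed.

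Of 58 further genes of the same pathways (NRF2 partners, parts of the KEAP1 ligase, NADPH enzymes, more glutathione transferases and glutaredoxins, sestrins and methionine sulfoxide reductases), 51 were tested and 0 were called by limma or limma-voom in any of the 6 comparisons. In the vector group 38 of 51 (74.5%) were below control (51.2% of all genes), with 5 lower and 2 higher at an unadjusted p under 0.05 (7.54% and 9.27% of all genes). The AKG group also had 38 below (51.4% of all genes), with 3 lower and 3 higher (7.19% and 10.5%), and the combined group had 35 (68.6%) below (50.8%), with 1 lower and 0 higher (5.19% and 8.71%). Sesn2, a stress-induced sestrin that helps reactivate peroxiredoxins and promotes KEAP1 degradation, was at 4.05 and 4.29 FPKM in the control libraries, 5.69 and 5.54 in the vector libraries, 6.04 and 5.86 in the AKG libraries and 4.95 and 4.86 in the combined libraries. All 6 treated libraries were above both controls, highest in the vector and AKG groups, with differences of 0.36 ± 0.09 and 0.43 ± 0.09 (unadjusted limma p 0.00632 and 0.00243, adjusted p 0.294 and 0.269). Its interaction was -0.59 ± 0.13 (unadjusted limma p 0.00273). Sesn3, of the same family, differed by 0.45 ± 0.17 and 0.42 ± 0.17 and Mafg, a small MAF partner of NRF2, by 0.46 ± 0.18 with AKG. Without control library 1 the AKG difference of Mafg was 0.17, while the vector and AKG differences of Sesn2 were 0.32 and 0.39.

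Genes of the list that lay lower included Rbx1, the RING subunit of the KEAP1 ligase, at 35.8 and 29.4 FPKM in the control libraries, 26.4 and 25.2 in the vector libraries, 25.4 and 26.2 in the AKG libraries and 24.9 and 27.95 in the combined libraries. All treated libraries lay below both controls, with vector and AKG differences of -0.32 ± 0.13 and -0.32 ± 0.13. Ccs, the copper chaperone that loads SOD1, differed by -0.49 ± 0.19 in the vector group and Msrb2, a mitochondrial methionine sulfoxide reductase, by -0.44 ± 0.16. Without control library 1 these were -0.22 for Ccs and -0.20 for Msrb2, and those of Rbx1 were -0.18 and -0.18. Cbr1, a carbonyl reductase, differed by -0.37 ± 0.13 in the combined group (unadjusted limma p 0.0239, adjusted p 0.349), and by -0.22 without control library 1.

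Some members share sequence or position with other genes. Prdx2, Prdx3, Prdx6 and Gpx4 each have a named pseudogene in the table, and 13 of the 35 genes are overlapped by another gene, 11 by one on the opposite strand. Prdx2 overlaps Junb and Rnaseh2a, Prdx5 overlaps Trmt112, Sod1 overlaps Scaf4 and Gss overlaps Acss2. The strand setting of the authors' counting is not stated in the labels or headers, so reads of such pairs cannot be told apart and those values are uncertain to that extent.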

How the data were processed

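Values came from 8 RNA-seq libraries, and their 4 groups and the replicate numbers from the labels. Per the labels' protocols, RNA came from a silica column kit and library construction used SMARTer mRNA-seq reagents. GRCm38 and mm10 are the builds in the submitters' processing notes. What aligned and counted the reads, and whether by strand, is not given in these sources. The deposited values are gene FPKM, with gene lengths beside them, per the file headers. FPKM times length fell on whole reads for 100% of values (within 0.01 of a read), and the recovered totals were 16544190.0 to 19125423 reads. Coordinates were those of the table, and 34 of the 35 members had the same ones in GENCODE M21.

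The 13716 genes averaging 1 FPKM or more were tested as log2(FPKM + 1) by limma 3.58.1 under R 4.3.3 (a mean for each group, all 8 libraries in 1 fit, eBayes with trend, two-sided, Benjamini-Hochberg adjustment over all tested genes, threshold 0.05). Residual degrees of freedom were 4 and the prior added a median of 2.98, so the spread was shared over groups. Each difference is still a mean of 2 libraries against 2. Control libraries differed more than others, with a median absolute log2 difference between replicates of 0.25 over all genes, against 0.11 to 0.17. Fitted library weights were 0.365 for control and 0.899 to 1.82 in the other groups. The shared spread may thus understate the error of comparisons with control. FPKM is not a count, so limma-voom on the recovered reads served only as an alternative. Lists are described by counts and medians with no list test. Values of every library are given for the regulators, direct targets, peroxiredoxins, superoxide dismutases and any member with an unadjusted p under 0.05, and the other members are given by range. Further pathway genes are named by the smallest unadjusted p, at most 3 per direction and comparison, and part of them is printed. The members, the lists, the roles and the tests were chosen with earlier results of these data known. The length trend was removed with a spline of 5 degrees of freedom per library. The fit was tested on simulated data. Promoters came from RefSeq (GRCm38.p6). Tables and figures were made with Python 3.11.15, pandas 2.3.3, numpy 2.4.6, scipy 1.17.1 and matplotlib 3.10.9.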

Additional observations from a re-analysis of the deposited data

How the results depend on the processing

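The settings varied were the low-value filter (none or 5 FPKM), the pseudocount (0.1), the scaling (quantile or median-of-ratios), the eBayes trend, library weights, limma-voom on recovered reads, the length trend, a replicate block, a wider class of targets and the libraries, each left out in turn with the lone remaining library of its group taken to vary as the other groups do. Leaving out control library 1 together with the length trend was chosen after seeing the data. Median-of-ratios scaling gave all 8 libraries the same factor of 1.01. It therefore could not change the differences, apart from a small shift through the pseudocount, and is no check on them. The members' medians were -0.32, -0.29 and -0.26 under it.

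The correlation of same-numbered deviations between groups was -0.32 to 0.34. With 2 libraries per group this cannot decide whether replicate numbers pair the samples or share a batch. With a replicate block the members' medians were as without it (-0.32, -0.29 and -0.26 for the vector, AKG and combined groups against control). This was fixed by the design, since each group holds a replicate 1 and a replicate 2, and only the p-values could change. The gene called with AKG became 0, and members at an unadjusted p under 0.05 became 3, 3 and 0, and 0 for the interaction. Without the filter on low values, 5, 12 and 4 genes were called in the vector, AKG and combined comparisons with control, 6 for combined against vector and 14 for combined against AKG. With a pseudocount of 0.1, 2 genes were called with AKG and 1 in the combined comparison. The AKG call was 0 with the length trend removed (with or without the replicate block), without the eBayes trend, with library weights, and without control library 1 and the length trend. Leaving out single libraries gave 0 to 3359 calls for the vector, 0 to 3376 for AKG, 0 to 2916 for combined against control and 0 to 1369 for the interaction, the highest of each without control library 2.

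The members' medians with quantile normalization were -0.23, -0.20 and -0.17 against control and 0.22 for the interaction. With the length trend removed, with or without the replicate block, they were -0.17, -0.14 and -0.095, and 0.23 for the interaction. Without control library 1 and the length trend they were -0.090, -0.075 and -0.028, and 0.097 for the interaction. Leaving out single libraries gave -0.49 to -0.13 for the vector, -0.47 to -0.13 for AKG, -0.42 to -0.075 for both, -0.025 to 0.19 for combined against vector, -0.055 to 0.15 for combined against AKG and 0.15 to 0.60 for the interaction. The gap between direct targets and peroxiredoxins with dismutases was -0.0010, -0.054 and -0.055 for the vector, AKG and both against control with the wider class of targets, 0.18, 0.074 and 0.012 with the length trend removed, 0.28, 0.11 and 0.078 with quantile normalization, and 0.063 for the vector without control library 1 and the length trend. Leaving out single libraries gave 0.096 to 0.52, 0.087 to 0.43 and 0.014 to 0.46.

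Of the members with an unadjusted p under 0.05 or among the 3 lowest or highest differences, some changed sign. With the length trend removed, with or without the replicate block, Slc7a11 was at -0.26 for the vector and -0.21 for AKG, and Sod2 at -0.12, -0.053 and -0.043 for the vector, AKG and both. With control library 1 also left out, Slc7a11 was at -0.052 for the vector, Sod2 at -0.17, -0.099 and -0.090, Gpx8 at 0.072 for the vector and Gss at -0.038 for AKG and -0.020 for both. Leaving out 1 library gave Slc7a11 a range of -0.034 (without vector library 2) to 0.21 for the vector, Sod2 -0.033 (without control library 1) to 0.31 for the vector, Srxn1 -0.025 (without control library 1) to 0.17 for both and Gss a value of -0.018 for AKG (without AKG library 2). The cause was not tested. Several of the alternatives counted next could not change a difference, only its p-value. They are the replicate block, the fit without the eBayes trend and the library weights, which were equal within a group. Leaving out a library of a group outside the comparison is another. Directions kept under these settings were fixed by design and say nothing of stability. Of the values of single named genes under the alternatives, 962 kept their direction and side of the threshold, 32 passed the threshold and 21 turned.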

Other observations

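The antioxidant genes also differed together between the 2 libraries of a group. In control, 28 of the 35 genes were higher in library 1 than in library 2 (44.9% of all tested genes), and in the vector group 24 were (51.6%). In the AKG group 7 were higher in library 1 (51.8%), and in the combined group 5 were (48.6%). The trend with gene length also differed between the libraries of a group. With it removed, the members' mean log2 deviation from each gene's mean went from 0.37 and 0.02 to 0.25 and 0.002 in control. It went from -0.07 and -0.14 to -0.05 and -0.10 with the vector. With AKG it went from -0.13 and -0.01 to -0.08 and -0.003, and with both from -0.15 and 0.09 to -0.10 and 0.08. The part of gene length in these replicate differences was not tested. The median absolute log2 difference between replicates over the 35 genes was 0.35 for control, 0.15 for the vector, 0.13 for AKG and 0.20 for both, against 0.25, 0.11, 0.12 and 0.17 over all tested genes. The summed level of the 35 genes was 2218 and 1691 FPKM for control, 1536 and 1425 for the vector, 1434 and 1578 for AKG and 1431 and 1747 for both, so the second combined library lay above control library 2.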
